A study of Mus musculus with 28 samples.

Results

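The ADAM family, membrane proteins with a disintegrin and a metalloprotease domain, was taken as the protein-coding genes of the GENCODE M21 annotation whose symbol is Adam followed by a digit. The secreted Adamts genes and the Adamdec gene were left out. This gave 33 genes of the 21430 protein-coding genes with a row in the deposited table, with 141 of its 94480 transcript rows. Values are RPKM, reads per kilobase of transcript scaled to the mapped reads of the library, summed over the transcripts of a gene. In all libraries but 1, described below, a read in an exon shared by several transcripts was counted for each of them. A sum thus grows with the number of transcripts, from 1 for 16 members to 21 for Adam22. Sums were therefore compared between libraries, and levels were compared between genes only on the longest coding transcript.

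The study sequenced polyadenylated RNA from gonads and FACS-sorted germ cells of wildtype mice and of mice without a working Csmd1 gene, which encodes a large transmembrane protein with complement-interacting domains. The knockout replaced exon 1 and part of intron 1 with a lacZ/neo cassette. The mice are described as C57BL/6 in the sample labels and as a mixed 129SvEvBrd:C57BL/6 background in the methods. Spermatogonia came from wildtype mice 178 and 648 and knockout mice 286 and 544. Primary spermatocytes came from wildtype mice 178 and 648 and knockout mice 544, 550, 613 and 614. Secondary spermatocytes came from wildtype mice 178 and 648 and knockout mice 286, 544 and 550, and spermatids from wildtype mice 178, 351 and 648 and knockout mice 286 and 544. Whole testes came from wildtype mice 178 and 648 and knockout mice 214, 269, 273, 286 and 308, and 1 whole ovary from wildtype mouse 86. The study took whole testes of sexually immature and of mature mice and sorted cells of mature males. An age of 40 days is given for mice 178 and 351, and which of the other testes were immature was not used here, so that all 7 were kept in 1 group. Each library is 1 mouse, and stages are listed in this order of mice throughout.

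Some libraries stood apart from their labels. Knockout spermatogonia of mouse 544 had a summed level of 6 late spermatid genes, the protamines and transition proteins among them, of 12398 RPKM against 9.0 to 578 in the other 3 spermatogonia libraries. The same sum was 8128, 8051 and 8671 RPKM in the spermatids of mice 178, 351 and 544 but 608 and 524 in those of mice 648 and 286. In the whole testes, of mixed ages, it ran from 8.91 to 12125 RPKM. Later exons of Csmd1 were still counted in the knockouts, so the level of Csmd1 does not check the genotype. Over testis and sorted libraries its gene sum was 0.033 to 1.66 RPKM without and 0.049 to 6.33 with the knockout. Sequencing depth was 23.8 to 61.5 M mapped reads in the 27 libraries whose values fall on whole reads, and is unknown for knockout primary spermatocytes of mouse 613. In that library the sum equalled the longest-transcript value for Adam10 (3.37 RPKM) and Adam11 (3.90), so shared reads were not counted for each transcript. Its sums for members with several transcripts are therefore not on the scale of the others. It gave the lowest primary spermatocyte sums of Adam3, Adam18, Adam22 and Adam32.

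ADAM proteins are made as inactive precursors, and proprotein convertases such as furin remove the prodomain. Some members, led by ADAM10 and ADAM17, are sheddases that cut growth factors, cytokines, adhesion molecules and Notch receptors from the cell surface of most tissues. Many others lack a working protease site and are known from the testis, where several are cut again as sperm mature and are left on the sperm head as partners in adhesion, with ADAM2 and ADAM3 needed for sperm to enter the oviduct and bind the egg coat.

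The family fell into a germ cell class of 21 members, a shared class of 8 and an ovary class of 4. Germ cell members had a highest stage mean of at least 4 times the ovary value, ovary members had an ovary value of at least 4 times the highest stage mean, and the rest were shared. These classes describe size and were not tested, since there was 1 ovary. The germ cell class held Adam1a, Adam1b, Adam2, Adam3, Adam4, Adam5, Adam6a, Adam6b, Adam7, Adam18, Adam20, Adam21, Adam24, Adam25, Adam26a, Adam26b, Adam29, Adam30, Adam32, Adam34 and Adam39. The shared class held Adam10, Adam11, Adam12, Adam15, Adam17, Adam19, Adam22 and Adam23, and the ovary class Adam8, Adam9, Adam28 and Adam33. In wildtype libraries alone, or on the longest transcript, Adam7 reached a mean of 1 RPKM in no cell type and was too low for a class. The same held for Adam33 on the longest transcript. In the ovary 14 members were listed at 0, and the rule itself places such members in the germ cell class.

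Members were also ordered by the stage with the highest mean. No germ cell member peaked in spermatogonia, 1 peaked in primary spermatocytes (Adam2), 2 in secondary spermatocytes (Adam18 and Adam30) and 18 in spermatids. Of the 12 other members 7 peaked in spermatogonia (Adam9, Adam10, Adam12, Adam17, Adam19, Adam23 and Adam33), 1 in primary spermatocytes (Adam28), 3 in secondary spermatocytes (Adam8, Adam11 and Adam22) and 1 in spermatids (Adam15). In wildtype libraries alone, on the longest transcript or with 1 mouse left out, the stage changed at least once for 11 members, 6 of them of the germ cell class (Adam1b, Adam2, Adam3, Adam5, Adam7 and Adam32). Of the 18 germ cell members highest in spermatids 13 were so in every one of these settings. In wildtype libraries Adam5 and Adam32 peaked in primary spermatocytes and Adam1b and Adam3 in secondary spermatocytes. The place of Adam28 rested on the library of mouse 613, at 2.56 RPKM against 0.171 to 0.367 in the other 5 primary spermatocyte libraries.

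**Figure D1:**
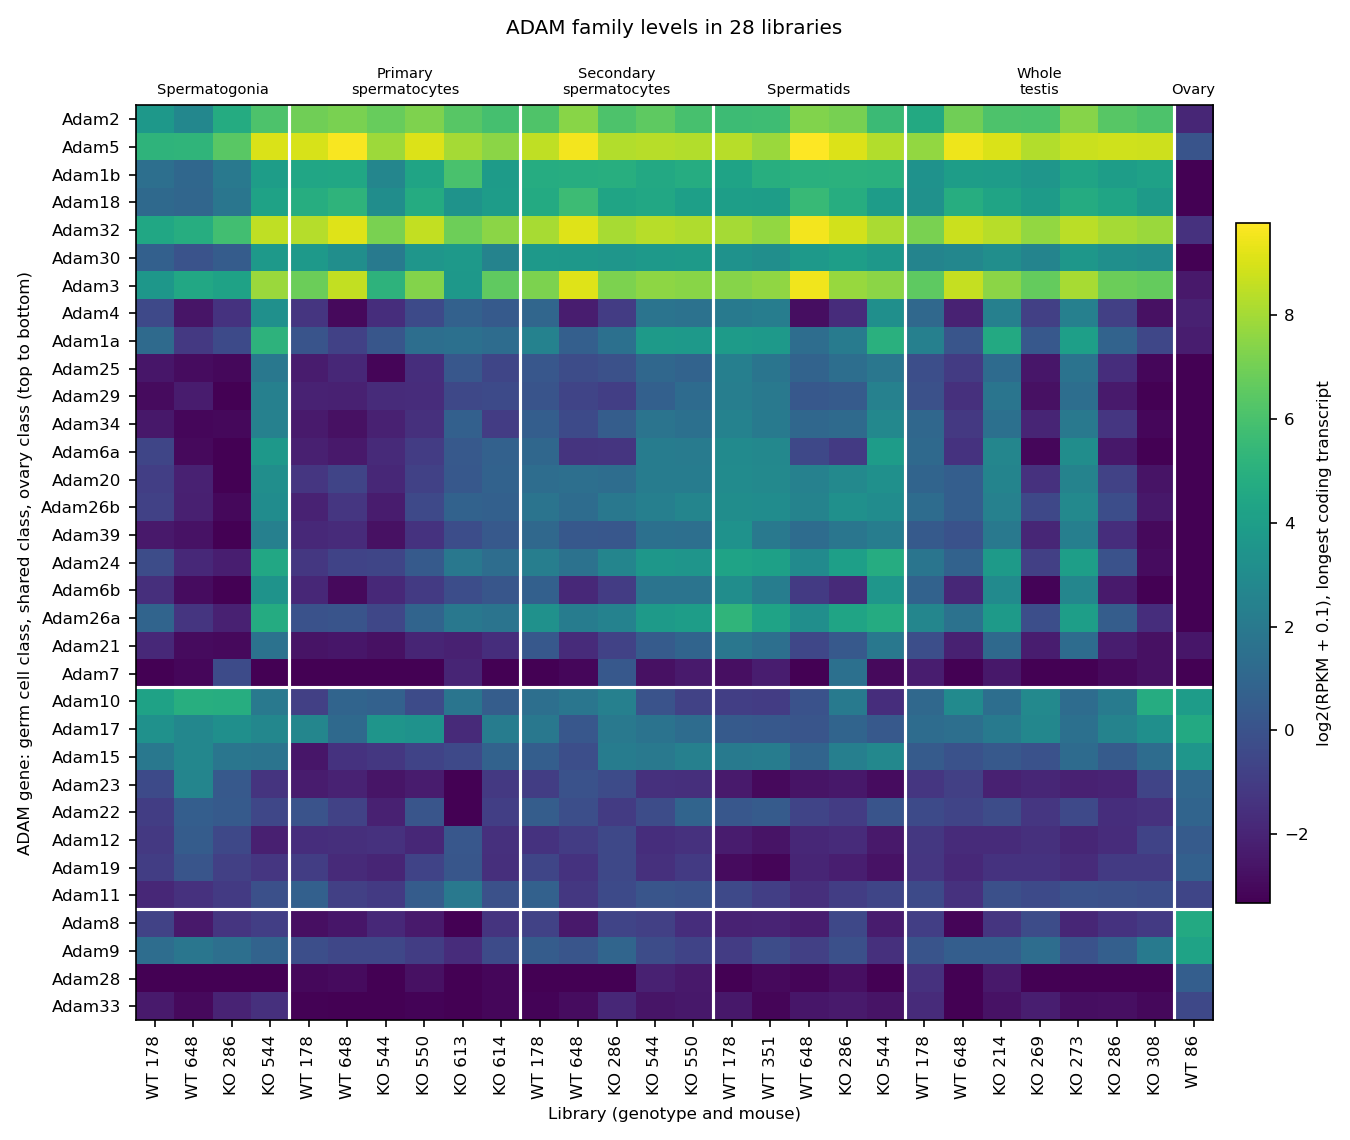
Level of each of the 33 ADAM genes (rows) in each of the 28 libraries (columns, WT wildtype, KO knockout, with the mouse), as log2(RPKM + 0.1) of the longest coding transcript. Germ cell members are at the top, ordered by their mean in primary spermatocytes as a share of their highest stage mean, and 14 of them are at 0 in the ovary. The column of knockout spermatogonia from mouse 544 is bright for the spermatid members, unlike the other 3 spermatogonia columns.

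Gene structure went with the classes. In 15 members the coding sequence of the longest coding transcript lay in 1 exon, and all 15 were germ cell members. The 6 other germ cell members were Adam2, Adam3, Adam5, Adam7, Adam18 and Adam32, with 19 to 23 coding exons, in the range of the shared and ovary classes (16 to 30). Germ cell members lay on chromosome 8 (12 members), 12 (4), 5 (2), 14 (2) and 3 (1), often side by side. On GRCm38, Adam18, Adam3, Adam5 and Adam32 followed each other from 24602246 to 24948804 on chromosome 8 with gaps of 2.5, 1.2 and 11.8 kb, and the ovary member Adam9 began 0.8 kb further on, at 24949611. The single-coding-exon genes Adam24, Adam25, Adam20 and Adam39 stood between 40675077 and 40827037 on the same chromosome, and Adam26b, Adam26a and Adam34 between 43519762 and 43710049. Adam1b and Adam1a were 15.1 kb apart on chromosome 5, and Adam6b and Adam6a 51.9 kb apart on chromosome 12.

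Several of these genes are near copies of each other, and how reads with several matches were counted is not stated. The longest identical run between transcripts was 1082 nt for Adam1a and Adam1b, 391 nt for Adam20 and Adam25, 348 nt for Adam25 and Adam39, 223 nt for Adam6a and Adam6b and 210 nt for Adam26a and Adam26b, all longer than a read. Adam26b shared a run of 119 nt with Adam34. The split of reads within each of these sets is therefore uncertain. The same holds for genes on the opposite strand, since a strand protocol is not stated: exons of Adam15 overlap the antisense gene 4731419I09Rik by 736 nt, those of Adam17 overlap Iah1 by 311 nt and those of Adam19 overlap Gm16033 by 587 nt. On its own strand Adam1a shares 771 nt with Gm42878.

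Windows of 300 bases around the start site, most of them upstream, were available from RefSeq (GRCm38.p6) for 17 members in 19 windows, of which 10 windows were of germ cell members. Windows of the fertilin alpha genes Adam1a and Adam1b, of the pairs Adam6a with Adam6b and Adam20 with Adam25, and of the sheddase Adam10 for contrast, are printed 5′ to 3′ on the strand of the gene, because these pairs carry the stage results given next. Capitals mark AACNGNC or TATAAA on either strand.

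Adam1a promoter, chr5:121521646-121521945, minus strand: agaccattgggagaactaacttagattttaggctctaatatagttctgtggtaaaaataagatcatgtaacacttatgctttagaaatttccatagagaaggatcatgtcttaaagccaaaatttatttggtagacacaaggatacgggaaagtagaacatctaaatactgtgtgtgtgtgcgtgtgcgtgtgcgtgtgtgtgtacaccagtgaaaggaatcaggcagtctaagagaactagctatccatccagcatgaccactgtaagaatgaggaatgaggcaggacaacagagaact
Adam1b promoter, chr5:121503386-121503685, minus strand: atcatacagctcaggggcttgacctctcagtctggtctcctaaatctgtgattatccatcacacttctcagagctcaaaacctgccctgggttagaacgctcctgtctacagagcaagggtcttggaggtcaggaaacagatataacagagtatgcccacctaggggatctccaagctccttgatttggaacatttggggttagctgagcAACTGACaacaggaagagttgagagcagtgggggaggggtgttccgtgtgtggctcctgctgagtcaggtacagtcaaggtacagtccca
Adam6a promoter, chr12:113543658-113543957, plus strand: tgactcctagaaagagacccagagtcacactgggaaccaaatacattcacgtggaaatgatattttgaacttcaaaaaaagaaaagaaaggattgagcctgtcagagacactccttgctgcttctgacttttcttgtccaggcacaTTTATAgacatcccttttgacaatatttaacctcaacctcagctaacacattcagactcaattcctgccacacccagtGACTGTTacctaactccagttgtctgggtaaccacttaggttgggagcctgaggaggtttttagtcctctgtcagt
Adam6b promoter, chr12:113489315-113489614, plus strand: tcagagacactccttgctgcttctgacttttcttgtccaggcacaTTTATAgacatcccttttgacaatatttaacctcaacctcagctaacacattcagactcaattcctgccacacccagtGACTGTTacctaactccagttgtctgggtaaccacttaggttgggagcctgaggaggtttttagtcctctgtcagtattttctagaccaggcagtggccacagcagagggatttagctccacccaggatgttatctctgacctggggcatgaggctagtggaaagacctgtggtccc
Adam20 promoter, chr8:40793023-40793322, plus strand: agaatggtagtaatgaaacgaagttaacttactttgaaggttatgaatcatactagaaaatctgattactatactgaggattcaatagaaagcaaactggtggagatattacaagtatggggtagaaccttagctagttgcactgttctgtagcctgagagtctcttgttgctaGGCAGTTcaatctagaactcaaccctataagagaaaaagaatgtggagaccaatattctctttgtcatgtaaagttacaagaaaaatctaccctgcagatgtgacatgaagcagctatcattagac
Adam25 promoter, chr8:40751958-40752257, plus strand: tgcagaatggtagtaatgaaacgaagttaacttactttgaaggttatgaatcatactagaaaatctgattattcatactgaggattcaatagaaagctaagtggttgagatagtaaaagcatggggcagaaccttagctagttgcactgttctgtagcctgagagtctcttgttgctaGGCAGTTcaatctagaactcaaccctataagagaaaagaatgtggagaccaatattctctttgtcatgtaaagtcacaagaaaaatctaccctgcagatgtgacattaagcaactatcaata
Adam10 promoter, chr9:70678732-70679031, plus strand: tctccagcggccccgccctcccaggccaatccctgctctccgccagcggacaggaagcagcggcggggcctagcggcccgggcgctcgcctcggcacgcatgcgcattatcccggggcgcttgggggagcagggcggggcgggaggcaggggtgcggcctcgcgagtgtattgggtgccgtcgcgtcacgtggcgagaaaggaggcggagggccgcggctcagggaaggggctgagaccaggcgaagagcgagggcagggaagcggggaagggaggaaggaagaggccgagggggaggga

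The windows of Adam6a and Adam6b shared an identical run of 199 bases at different distances from the annotated starts. Those of Adam20 and Adam25 aligned over 296 bases at 95.9% identity. Adam1a and Adam1b, although near copies in their transcripts, shared no run longer than 8 bases in these windows. GC content was 35.3 to 51.0% (median 39.5%) in the 10 germ cell windows and 49.3 to 73.3% (median 65.3%) in the 9 windows of the other classes, against a median of 52.7% over 32851 windows of all genes. The germ cell windows held 0 to 4 CpG dinucleotides and the others 5 to 32, with a median of 7 over all windows.

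On both strands, AACNGNC, the core recognised by MYB factors, was present in 6 of the 10 germ cell members (Adam1b, Adam6a, Adam6b, Adam20, Adam25 and Adam29) and in 2 of the 7 others, against 32.8% of all windows. TATAAA was present in 3 germ cell members (Adam6a, Adam6b and Adam29) and in none of the others, against 13.6% of all windows. GTTGCCA, part of the site of RFX factors, was present in Adam26b alone, against 4.4%. The cyclic AMP response element TGACGTCA, to which CREM binds in spermatids, was in no window of the family, against 1.8% of all windows. TGACG, which is contained in it, was in Adam10 alone, against 20.8%. Near copies share much of these windows and are not separate observations.

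On the longest coding transcript the most abundant members were Adam5, at 459 ± 264 RPKM (SD, n = 5) in spermatids, Adam32 at 390 ± 222 and Adam3 at 294 ± 233, and these 3 did not differ beyond their spread. All encode testis ADAM proteins without a working protease site that are found on sperm. Adam2, fertilin beta, followed at 111 ± 35.5 RPKM (SD, n = 6) in primary spermatocytes. Adam1b (28.9 ± 5.62), Adam18 (27.2 ± 13.5) and Adam26a (22.5 ± 10.5) overlapped each other at their highest stages, as did Adam24 (17.5 ± 6.94), Adam1a (13.3 ± 11.8) and Adam30 (13.0 ± 0.988). Of the shared members Adam10 reached 20.1 ± 12.0 RPKM in spermatogonia (n = 4), Adam17 8.02 ± 1.76 and Adam15 4.39 ± 1.81 in spermatids. In the 27 testis libraries the multi-exon germ cell members Adam2, Adam3, Adam5, Adam18 and Adam32 made up 80.1 to 98.2% of the summed level of all germ cell members.

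The germ cell members fell into those already high in primary spermatocytes and those that were not. This division was made after the values were seen and has no test. In primary spermatocytes Adam2, Adam5, Adam1b, Adam18, Adam32, Adam30 and Adam3 stood at 45.8 to 100% of their highest stage mean on the longest transcript. Adam4, Adam1a, Adam25, Adam29, Adam34, Adam6a, Adam20, Adam26b, Adam39, Adam24, Adam6b, Adam26a and Adam21, all with 1 coding exon, stood at 5.1 to 18.6%. These 7 and 13 members are called early and late. Adam7 stood at 4.4% and is described separately. The 2 genes for fertilin alpha were thus on either side, Adam1b at 86.9% and Adam1a at 12.7%.

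**Figure D2:**
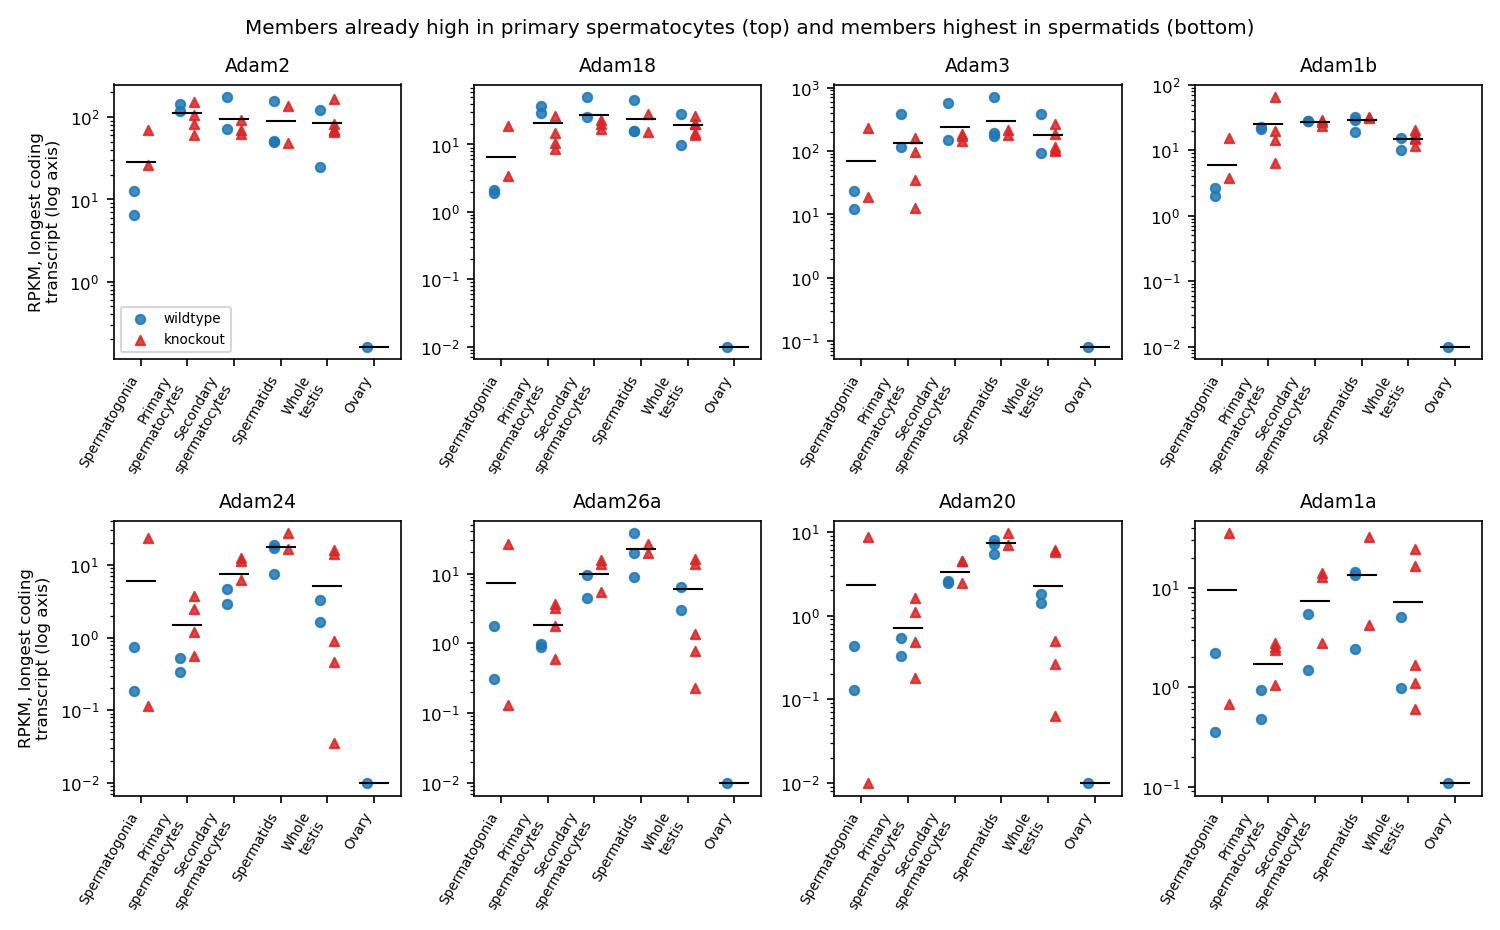
RPKM of the longest coding transcript (log axis) by cell type for 4 early germ cell members, already high in primary spermatocytes (top row), and 4 late ones (bottom row). Adam3 and Adam1b of the top row also had their highest mean in spermatids. Points are libraries, blue circles wildtype and red triangles knockout, black lines are means of all libraries of a cell type, and values under 0.01 are drawn at 0.01. The 4 genes of the top row are at 45.8 to 100% of their highest stage mean in primary spermatocytes. Those of the bottom row are higher in every secondary spermatocyte library than in the wildtype primary spermatocytes. With the knockouts Adam1a and Adam24 overlap, at 2.77 and 3.70 RPKM in primary spermatocytes of mouse 613 and at 1.47 and 2.92 in secondary spermatocytes of mouse 648.

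The step from spermatogonia to primary spermatocytes raised 6 germ cell members, the multi-exon Adam2, Adam5, Adam18 and Adam32 and the single-coding-exon Adam1b and Adam30. The shared member Adam11 rose too, and Adam10, Adam15 and Adam23 fell, so that 10 of 33 members passed the test against 25.4% of all 22715 genes tested. Of all genes 13.0% rose and 12.4% fell. All 33 members passed the filter on low values. The germ cell median was a log2 difference of 0.55, against 0.09 over all genes. In bulk libraries such as these, fewer cells of a type and less RNA per cell cannot be told apart.

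Adam2 was at 12.5, 6.49, 26.2 and 69.6 RPKM in spermatogonia and at 60.2, 113 and 153 (lowest, median and highest of 6) in primary spermatocytes. Its secondary spermatocytes were at 72, 176, 70.1, 92.7 and 62.3 and its spermatids at 49.9, 51.4, 158, 136 and 49.2, with 24.7, 70.2 and 166 in whole testis (lowest, median and highest of 7) and 0.163 in the ovary. Spermatogonia were below every later library except that of mouse 544, which lay among them, and the later stages overlapped fully. The log2 difference between primary spermatocytes and spermatogonia was 2.65 ± 0.42 (SE, adjusted p = 0.000844, limma).

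Adam18, another sperm ADAM without a working protease site, was at 7.81, 5.92, 10.1 and 70.7 RPKM in spermatogonia and at 26.5, 70.7 and 110 (lowest, median and highest) in primary spermatocytes. Secondary spermatocytes were at 98.7, 146, 72, 90.6 and 68.7 and spermatids at 63.2, 58.6, 144, 88.1 and 56.6, with 38.2, 75.2 and 92.1 in whole testis and 0 in the ovary. Here too only the spermatogonia of mouse 544 reached the later stages. The first step was 2.52 ± 0.44 (adjusted p = 0.00139, limma).

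Adam32 was summed over 8 transcripts, to 222, 334, 575 and 3716 RPKM in spermatogonia and 518, 2640 and 6336 (lowest, median and highest) in primary spermatocytes. It was at 2914, 6172, 3097, 3839 and 3342 in secondary spermatocytes, at 1838, 2345, 8587, 5056 and 3128 in spermatids, at 1459, 2548 and 4760 in whole testis and at 1.21 in the ovary. The first step was 1.75 ± 0.43 (adjusted p = 0.00834, limma). The lowest primary spermatocyte sum was that of mouse 613, whose sums are on another scale. On the longest transcript primary spermatocytes were at 118 to 563 RPKM and spermatogonia at 22.1, 42.2 and 373 (lowest, median and highest).

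Adam3, cyritestin, needed for sperm to bind the egg coat and summed over 10 transcripts, was at 124, 338, 287 and 3126 RPKM in spermatogonia and at 272, 1324 and 5873 (lowest, median and highest) in primary spermatocytes. It was at 1867, 9338, 2013, 2574 and 2396 in secondary spermatocytes, 1632, 2282, 12595, 3202 and 2409 in spermatids, 1212, 1578 and 6262 in whole testis and 0.398 in the ovary. Mouse 648 was the highest at each of the last 3 stages. The difference in the first step was 1.45 ± 0.64 and did not pass (adjusted p = 0.109, limma). Without the spermatogonia of mouse 544 it was 2.07 ± 0.67 (adjusted p = 0.0287, limma).

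The other risers of the first step were Adam5 (1.81 ± 0.33, adjusted p = 0.00158, limma), Adam1b (2.75 ± 0.62, adjusted p = 0.00511) and Adam30 (2.45 ± 0.50, adjusted p = 0.00299). Adam1b, the fertilin alpha of the sperm surface, was at 2.66, 1.98, 3.76 and 15.4 RPKM in spermatogonia, at 6.43 to 65.7 in primary spermatocytes, at 23.7 to 29.2 in secondary spermatocytes and at 19.2 to 33.0 in spermatids. Its highest primary spermatocyte value was that of mouse 613, the library of unknown depth.

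Leaving out the spermatogonia of mouse 544 gave 17 members called, against 30.7% of all genes. The additions were Adam3, Adam20 (2.18 ± 0.54), Adam24 (2.01 ± 0.54), Adam26a (2.13 ± 0.62), Adam26b (1.62 ± 0.57) and Adam39 (1.94 ± 0.62), which rose, and Adam9, which fell. Adam20 with Adam39, and Adam26a with Adam26b, are near copies and not separate observations. With the mouse as a block 12 members passed, against 35.8% of all genes, with Adam33 (-2.04 ± 0.57, adjusted p = 0.0105, limma) and Adam9 (-1.04 ± 0.36, adjusted p = 0.0339) added. Within the 3 mice with both stages (178, 648 and 544), Adam2 was the 1 germ cell member higher in each, against 14.8% of all genes. Adam1b, Adam3, Adam5, Adam18, Adam30 and Adam32 were higher in primary spermatocytes of mice 178 and 648 and lower in those of mouse 544. Of the shared members 5 of 8, of the ovary members 3 of 4 and of the germ cell members 2 of 21 (Adam4 and Adam6b) were lower in each mouse, against 28.5% of all genes.

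The 3 members that fell from spermatogonia to primary spermatocytes were Adam10, Adam15 and Adam23, all of the shared class, against 12.4% of all genes. Adam10, the sheddase of Notch and many cell surface proteins, was at 33.7, 71.9, 81.3 and 9.68 RPKM in spermatogonia and at 1.52, 3.90 and 4.94 (lowest, median and highest) in primary spermatocytes. Secondary spermatocytes were at 6.26, 8.98, 14.8, 3.08 and 1.5 and spermatids at 1.45, 1.02, 2.37, 12.1 and 1.36, with 4.27, 10.7 and 43.3 in whole testis and 60.7 in the ovary. All spermatogonia were above all primary spermatocytes. The log2 difference was -3.33 ± 0.82 (adjusted p = 0.00784, limma).

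Adam15, an integrin-binding member with an active protease site, was at 45.0, 72.2, 42.2 and 42.1 RPKM in spermatogonia and at 1.01, 5.84 and 16.0 (lowest, median and highest) in primary spermatocytes, so that the stages did not overlap. It rose again to 14.2, 8.85, 56.4, 45.3 and 60.5 in secondary spermatocytes and stood at 54.1, 54.1, 20.2, 66.1 and 82.8 in spermatids, with 9.24, 14.1 and 31.2 in whole testis and 128 in the ovary. Its fall of -3.47 ± 0.43 (adjusted p = 0.000337, limma) and its rise of 2.46 ± 0.41 in the next step (adjusted p = 0.0236, limma) both passed. The rise was no longer past the threshold on the longest coding transcript (1.92, adjusted p = 0.0522, limma), in wildtype (2.29, adjusted p = 0.621) or knockout libraries alone (2.60, adjusted p = 0.116), or without mice 178, 550 or 648 (2.07, 2.32 and 2.80). No other member passed in 2 steps.

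Adam17, which releases tumour necrosis factor and ligands of the EGF receptor, was at 102, 51.5, 89.5 and 74.2 RPKM in spermatogonia and at 15.5, 62.1 and 134 (lowest, median and highest) in primary spermatocytes. It was at 41.5, 7.50, 41.5, 33.1 and 25.1 in secondary spermatocytes, 11.7, 11.2, 7.21, 15.3 and 12.3 in spermatids, 20.1, 43.8 and 111 in whole testis and 187 in the ovary. All spermatid libraries were below all spermatogonia. The differences were -0.67 ± 0.47, -1.08 ± 0.45 and -0.91 ± 0.46 in the 3 steps, none past the threshold, and the test over all stages passed (adjusted p = 0.00185, limma).

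Adam23, a catalytically inactive member that binds LGI proteins in the nervous system, was at 6.01, 53.3, 12.3 and 2.83 RPKM in spermatogonia, at 0.873 to 3.71 in primary spermatocytes and at 18.4 in the ovary. Its fall was -2.26 ± 0.72 (adjusted p = 0.0297, limma), and without mouse 648, whose spermatogonia were the highest, it was -1.43 (adjusted p = 0.267). Adam11, of the same inactive group, rose by 1.83 ± 0.56 (adjusted p = 0.0252, limma), and on the deposited values without quantile normalization the difference was 1.31 (adjusted p = 0.131). Adam22, also an LGI receptor, was at 10.6, 57.6, 34.9 and 20.7 RPKM in spermatogonia and 1.34, 15.2 and 34.7 (lowest, median and highest) in primary spermatocytes. Its secondary spermatocytes were at 46.3, 39.5, 14.9, 25.8 and 50.6 and its later libraries at 44.8, 54.9, 24.8, 17.5 and 30.5 in spermatids, 4.60, 17.8 and 31.1 in whole testis and 34.4 in the ovary. Its stages overlapped and it passed in no step.

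Markers of somatic cells moved with these falls, in a step where 12.4% of all genes fell. The summed level of 6 peritubular and stromal genes was 123, 778, 179 and 28.1 RPKM in spermatogonia and 2.1 to 41.3 in primary spermatocytes, and 5 of the 6 fell (Acta2, Myh11, Dcn, Col1a1 and Pdgfra). The highest and lowest of these sums were those of mice 648 and 544, which also had the highest and lowest Adam23. The macrophage and the spermatogonial sums had the same highest and lowest mice. Adam10 was lowest in mouse 544 too but highest in mouse 286, at 81.3 RPKM against 71.9 in mouse 648. Of 6 macrophage genes 4 fell, with sums of 14.1, 52.9, 8.8 and 8.1 RPKM in spermatogonia and 1.5 to 7.6 in primary spermatocytes. Of 5 Sertoli cell genes tested 2 fell (Wt1 and Cldn11), with sums of 51.8, 101.1, 55.3 and 60.2 and of 3.7 to 25.7 RPKM. Rhox5, the other Sertoli cell gene, was listed at 0 in all whole testes as well and was not tested. None of 6 Leydig cell genes passed, with sums of 15.1, 328, 10.7 and 24.2 and of 3.3 to 83.1. The spermatogonial genes themselves fell too, 5 of 6, from 198, 442, 363 and 75.1 RPKM to 3.9 to 72.4. The part of somatic cells in the levels of Adam10, Adam15 and Adam23 was not tested.

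**Figure D3:**
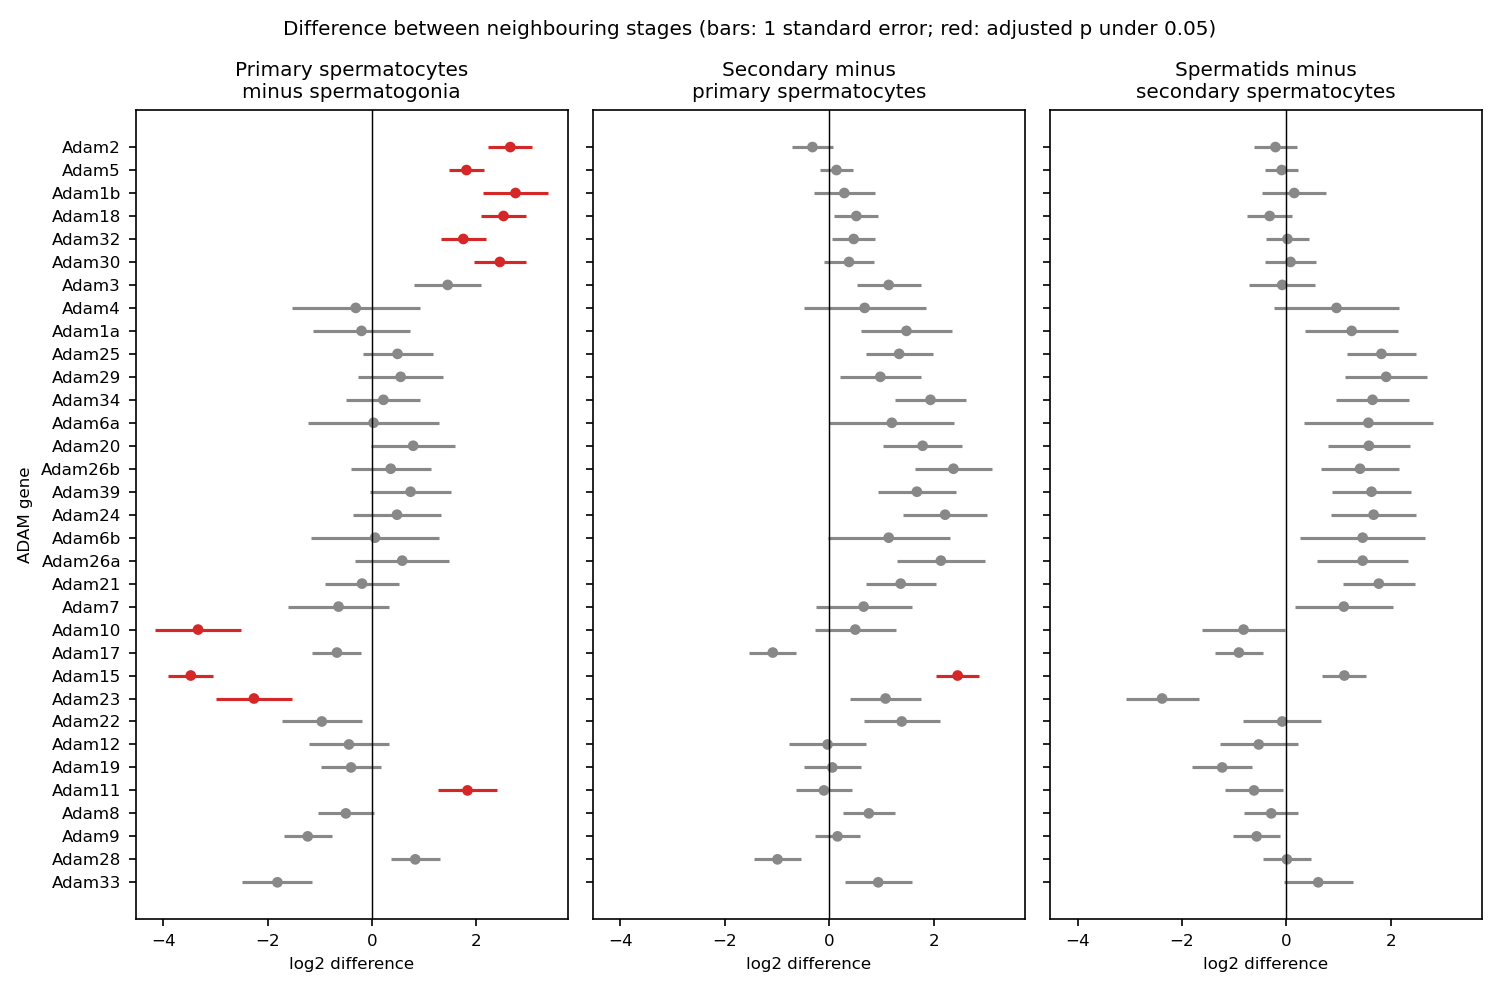
Log2 difference between neighbouring stages for the 33 ADAM genes (rows, germ cell members at the top), with 1 standard error. Red marks an adjusted p under 0.05, and a positive value is a higher level at the later stage. The first step has 10 red members, the second Adam15 alone and the third none. The 13 late members lie to the right of 0 in both later steps, but they were chosen on these stage means, so their rise is no separate result.

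Adam15 was the single member past the threshold between primary and secondary spermatocytes, against 1.95% of all genes. The germ cell median was 1.14 on the log2 scale, against -0.10 over all genes, and 20 of 21 germ cell members were above 0. Within the 4 mice with both stages (178, 648, 544 and 550), 16 of 21 germ cell members were higher in secondary spermatocytes in every mouse, against 29.5% of all genes. These were the 13 late members and Adam1b, Adam3 and Adam30. The late members were chosen on these stage means and hold near copies, so their rise is no separate result. Of the ovary members 3 of 4 and of the shared members 4 of 8 were also higher in every mouse.

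Markers of other cells moved in this step too, although 0 of their genes passed (limma). The median difference was 2.61 for 6 round spermatid genes, with sums of 103 to 202 RPKM in primary and 192 to 635 in secondary spermatocytes, and 1.17 for the 6 late spermatid genes (41.6 to 446 and 144 to 2674). It was 1.56 for 6 Leydig cell genes (3.3 to 83.1 and 14.7 to 72.6 RPKM), 1.27 for the peritubular and stromal genes (2.1 to 41.3 and 10.03 to 120) and 1.26 for the macrophage genes (1.5 to 7.6 and 6.8 to 15.3). Their part in the levels of the family was not tested.

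With the mouse as a block 9 members passed in this step, against 17.4% of all genes. Adam26b (2.64 ± 0.65, adjusted p = 0.0141, limma), Adam24 (2.50 ± 0.69, adjusted p = 0.0223), Adam26a (2.42 ± 0.72, adjusted p = 0.0295), Adam34 (2.18 ± 0.53, adjusted p = 0.0135), Adam20 (2.05 ± 0.65, adjusted p = 0.0406), Adam39 (1.96 ± 0.62, adjusted p = 0.0391) and Adam21 (1.56 ± 0.50, adjusted p = 0.0422) rose with Adam15, and Adam17 fell (-1.18 ± 0.33, adjusted p = 0.0246). Without the spermatogonia of mouse 544, which share the estimate of the spread, 6 members passed, Adam15, Adam20, Adam24, Adam26a, Adam26b and Adam34, against 6.37% of all genes. Adam24 and Adam26a encode testases, ADAM proteases of the testis. Adam26a, Adam26b and Adam34 are near copies with an uncertain split of reads, as are Adam20 and Adam39. Their calls are not separate observations, and the late members were chosen on their stage means.

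Between secondary spermatocytes and spermatids 0 members passed, and 0 of all genes (limma). At an unadjusted p under 0.05 there were 8 members, 6 higher and 2 lower, against 14.5% of all genes. The germ cell median was 1.41 and that of the shared class -0.72, against -0.05 over all genes. Within the 4 mice with both stages (178, 648, 286 and 544) 11 of 21 germ cell members were higher in spermatids in every mouse, against 12.7% of all genes, and 6 of 8 shared members were lower in every mouse, against 27.7%. The 11 were Adam1a, Adam6a, Adam20, Adam21, Adam24, Adam25, Adam26a, Adam26b, Adam29, Adam34 and Adam39, and the 6 were Adam10, Adam11, Adam12, Adam17, Adam19 and Adam23. All 11 are late members, chosen on their stage means, so their rise is no separate result either. The somatic lists were lower in spermatids as well, with medians of -1.98 for Leydig cell (2.1 to 11.9 RPKM in spermatids), -1.16 for peritubular and stromal (2.6 to 24.3), -1.14 for macrophage (2.0 to 5.4) and -0.86 for Sertoli cell genes (3.7 to 38.4), and those of round and late spermatids were 1.54 and 1.70. Their part in the levels of the family was not tested. With the mouse as a block Adam21 rose (1.84 ± 0.52, adjusted p = 0.0466, limma) and Adam23 fell (-2.31 ± 0.54, adjusted p = 0.0255), against 5.97% of all genes.

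Over all 4 stages 22 of 33 members passed the F test, against 45.7% of all genes. These were 16 germ cell members, 5 shared members (Adam10, Adam11, Adam15, Adam17 and Adam23) and Adam9. The 5 germ cell members that did not pass were Adam1a, Adam4, Adam6a, Adam6b and Adam7, among them those that varied most between spermatid libraries.

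The late members differed among the 5 spermatid libraries in a graded way. Their summed level on the longest transcript was 136, 99.3, 38.9, 68.6 and 164 RPKM in the spermatids of mice 178, 351, 648, 286 and 544, while the late spermatid genes stood at 8128, 8051, 608, 524 and 8671. Adam4 was at 3.94, 4.61, 0.039, 0.213 and 9.04 RPKM, Adam6a at 7.52, 6.95, 0.627, 0.376 and 15.1 and Adam6b at 8.55, 4.60, 0.361, 0.199 and 11.9. ADAM6 is a sperm protein found in complexes with ADAM2 and ADAM3. For these 3 genes the lowest of mice 178, 351 and 544 was 18.5, 11.1 and 12.7 times the highest of mice 648 and 286.

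Adam1a, the fertilin alpha that pairs with ADAM2 in the endoplasmic reticulum, was at 14.4, 13.3, 2.42, 4.25 and 32.3 RPKM, with a ratio of 3.13, and Adam29, Adam21, Adam34, Adam25 and Adam39 had ratios of 3.03, 2.30, 1.81, 1.32 and 1.10. Adam20 (7.95, 7.12, 5.40, 7.05 and 9.56) and Adam24 (19.0, 17.3, 7.58, 16.7 and 27.1) were separated by ratios of 1.01 and 1.03 only. Adam26a, Adam26b, Adam1b and Adam30 overlapped, so that 11 of the 15 members with 1 coding exon did not overlap between these libraries and 4 did. Of all 21803 genes 18.5% were higher in each of mice 178, 351 and 544 than in both others on the same measure. The mice were set side by side by their late spermatid genes after the values were seen, both sets hold both genotypes, and the part of the cell mixture of the gate in these values was not tested.

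**Figure D4:**
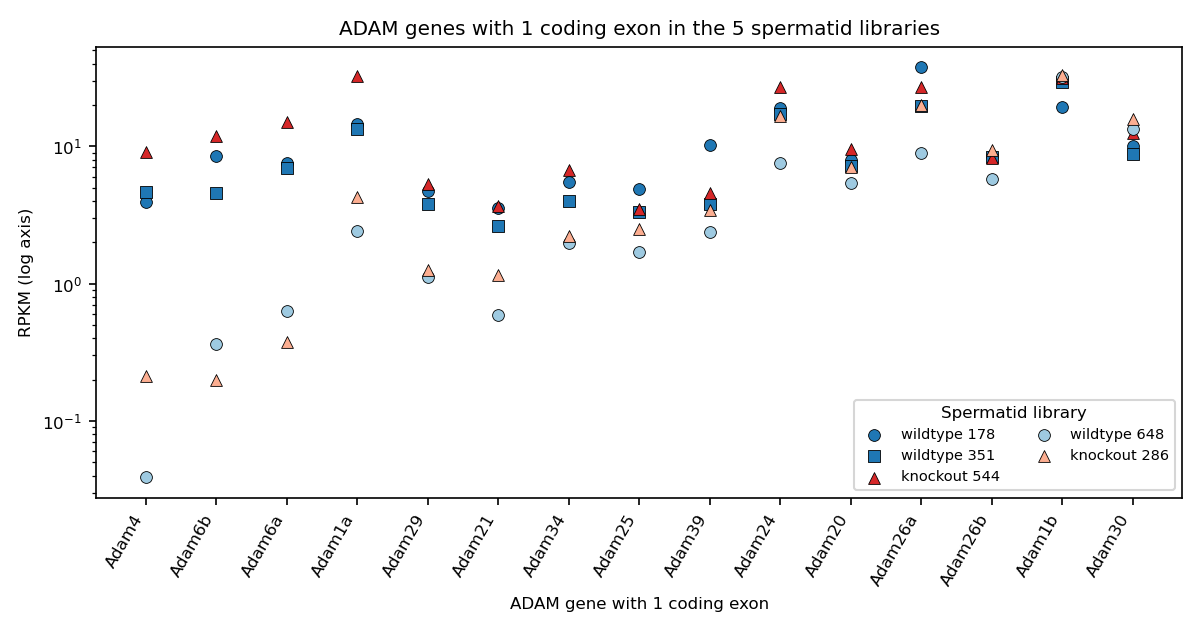
RPKM (log axis) of the 15 ADAM genes with 1 coding exon in the 5 spermatid libraries. Dark symbols are mice 178, 351 and 544, with a summed late spermatid level of at least 8051 RPKM, and pale symbols mice 648 and 286, with at most 608. Adam4, Adam6b and Adam6a at the left lie at least 11.1 times apart, and Adam26b, Adam1b and Adam30 at the right overlap.

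The sum of the 13 late members also varied in the other libraries. In spermatogonia it was 7.55, 1.46, 1.28 and 156 RPKM, and in whole testis it was 30.4, 11.0, 97.4, 4.25, 98.0, 6.80 and 1.17 for mice 178, 648, 214, 269, 273, 286 and 308. In primary spermatocytes it ran from 3.54 to 20.5, in secondary spermatocytes it was 37.5, 17.7, 26.0, 71.0 and 71.6, and in the ovary 0.31. It did not follow the late spermatid genes in every library: whole testis of mouse 178, at 6082 RPKM for those genes, had a lower sum of the late members than the spermatids of mouse 286, at 524 RPKM. The whole testes of mice 269, 286 and 308, with late spermatid sums of 26.5, 39.6 and 8.91 RPKM, held all of the early members at levels among those of the other testes: Adam2 was at 66.8, 81.7 and 70.2 RPKM and Adam18 at 54.6, 78.7 and 51.9. The testis of mouse 308 was the lowest for Adam24, at 0.036 RPKM, against 0.455 to 15.9 in the other 6.

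Adam7, known from the epididymis, from where the protein is passed to sperm, was a member of the germ cell class through mouse 286 alone. It was at 1.0, 2.54 and 5.44 RPKM in the spermatogonia, secondary spermatocytes and spermatids of that mouse and at 0 to 0.207 in all other libraries, whole testis of mouse 286 included (0.094). Gpx5, an epididymal glutathione peroxidase, was at 5.28, 3.26 and 13.3 RPKM in the same 3 libraries. The sum of 6 epididymal genes was 5.28, 4.84 and 14.7 RPKM there and at most 0.76 elsewhere. The part of epididymal tissue in the level of Adam7 was not tested.

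The highest ovary sums of the ovary and shared classes were those of Adam17 (187 RPKM), Adam8 (162), Adam15 (128) and Adam10 (60.7), each over 4 to 13 transcripts. On the longest coding transcript the order in the ovary was Adam8 (24.6 RPKM), Adam17 (24.4), Adam9 (19.4), Adam10 (15.3) and Adam15 (11.8). Adam8, a protease of leukocytes and other cells that also sheds adhesion molecules, was at 2.83, 0.449, 1.85 and 2.80 RPKM in spermatogonia and 0.292, 0.863 and 1.48 (lowest, median and highest) in primary spermatocytes. Later it was at 2.79, 0.447, 3.34, 2.85 and 1.52 in secondary spermatocytes, 0.843, 0.808, 0.573, 3.05 and 0.651 in spermatids and 0.200, 1.83 and 3.91 in whole testis. Every testis and sorted library was below the ovary value, and the stages overlapped. Adam9, a widely expressed sheddase, was at 5.10, 7.0, 5.44 and 3.46 RPKM in spermatogonia, at 0.867 to 1.57 in primary spermatocytes and at 39.5 in the ovary. It lay below the spermatogonia in every primary spermatocyte library, with a difference of -1.23 ± 0.46 that did not pass (adjusted p = 0.0619, limma).

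Adam28, a lymphocyte ADAM, was at 2.90 RPKM in the ovary and at most 2.56 elsewhere, and Adam33, known from airway smooth muscle, was at 5.61 in the ovary and at most 2.94. Adam28 was at 0.720, 0.342, 0.144 and 0.284 RPKM in spermatogonia, 0.171, 0.335 and 2.56 (lowest, median and highest) in primary spermatocytes, at most 0.578 in secondary spermatocytes and 0.291 in spermatids, and 0.053, 0.188 and 1.10 in whole testis. Both of the highest testis values were those of the primary spermatocytes of mouse 613. The meltrins Adam12 and Adam19, known from muscle and bone, were at 7.94 and 5.51 RPKM in the ovary, and at 0.108 to 5.05 and 0.106 to 2.50 in sorted germ cells.

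**Figure D5:**
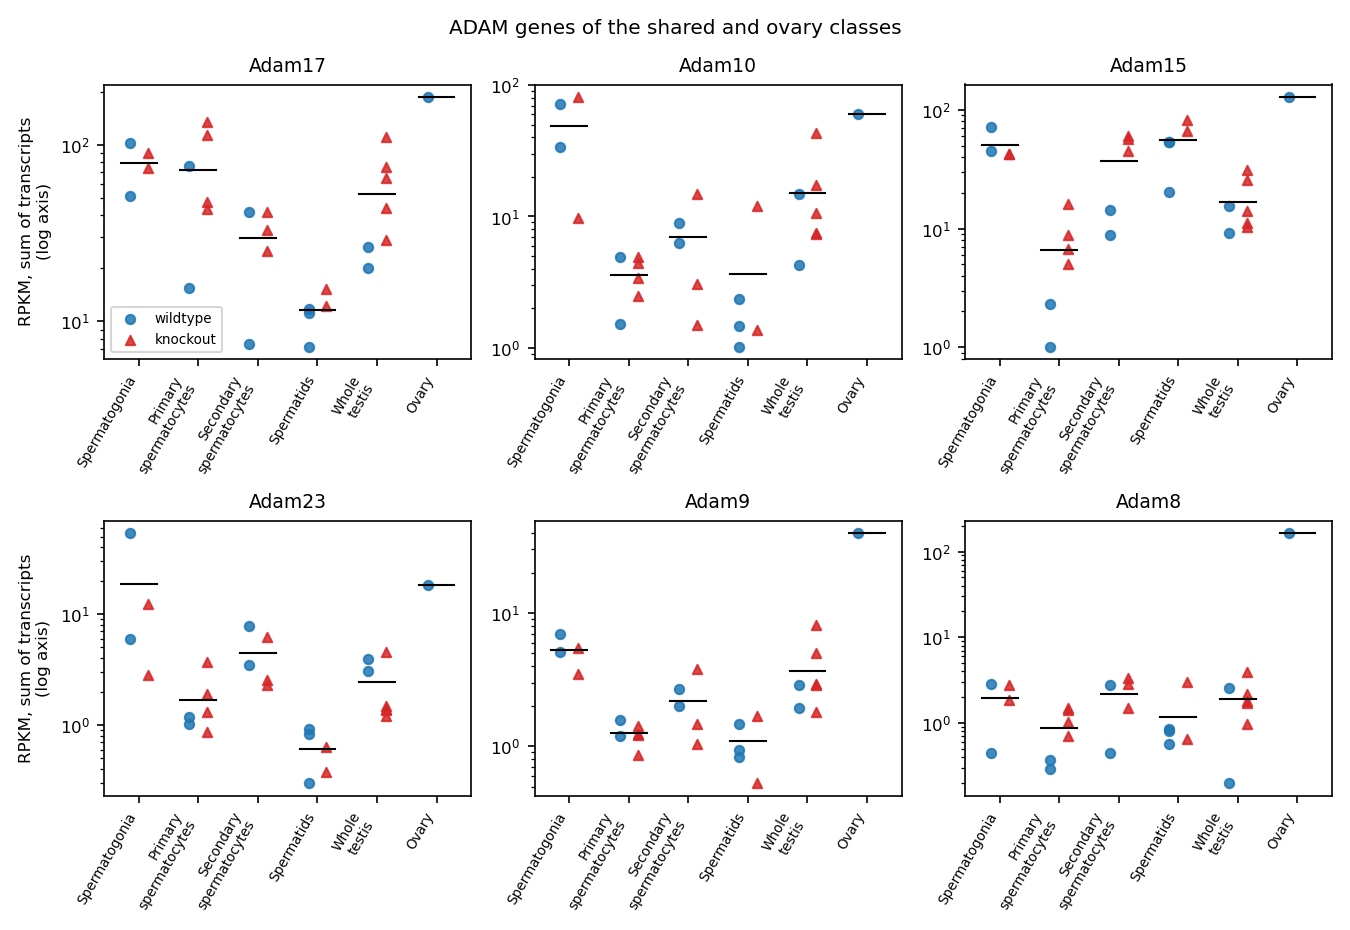
RPKM summed over transcripts (log axis) by cell type for 4 shared members (Adam17, Adam10, Adam15 and Adam23) and 2 ovary members (Adam9 and Adam8). Points are libraries, blue circles wildtype and red triangles knockout, and black lines are means of all libraries of a cell type. Adam10, Adam15 and Adam9 are lower in all primary spermatocyte libraries than in all spermatogonia libraries. Adam23 has a lower mean there but overlaps, at 3.71 RPKM in primary spermatocytes of mouse 614 and 2.83 in spermatogonia of mouse 544. Adam15 is high again in spermatids, and the ovary stands above the testis libraries for Adam8, Adam9, Adam15 and Adam17.

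Whole testis was compared with the mean of the 4 sorted stages. No member passed, against 0.0132% of 22744 genes, and 1 did so at an unadjusted p under 0.05 against 5.73% of genes. That member was Adam15, with a difference of -0.79 ± 0.31 (adjusted p = 0.684, limma). The median difference was -0.32 for germ cell members and -0.13 for shared members, against -0.03 over all genes. Without the spermatogonia of mouse 544 these medians were 0.0 and -0.23. Within mice 178, 648 and 286, which have both kinds of library, the median over the family was 0.38, 0.20 and -0.62 on deposited RPKM. Over all mice it was -0.23 on normalized values. Mouse 286 has no primary spermatocytes, so its whole testis was set against the mean of its other stages, which is not the same contrast. Somatic genes were not all higher in whole testis: the median was 1.77 for Sertoli cell, 0.08 for Leydig cell, -0.24 for macrophage and -0.52 for peritubular and stromal genes, so the comparison does not separate members of germ cells from those of other testis cells.

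Genes that work with the family were followed in 5 lists of 50 genes in all, of which 47 were tested. Between spermatogonia and primary spermatocytes 20 of the 47 passed, against 25.4% of all genes. In the later steps 0 passed (limma), and 11 and 6 were under an unadjusted p of 0.05, against 20.5 and 14.5% of all genes. Of 14 genes needed for the maturation of ADAM2 and ADAM3 or acting beside them 5 rose from spermatogonia to primary spermatocytes and none fell, against 13.0% of all genes that rose, with a median of 1.13. Clgn, the chaperone calmegin, was at 41.9 to 562 RPKM in spermatogonia, 323 to 893 in primary spermatocytes and 0 in the ovary, a rise of 1.92 ± 0.35 (adjusted p = 0.00173, limma). Cmtm2a (1.94 ± 0.50, adjusted p = 0.0107) and Lypd4 (2.06 ± 0.51, adjusted p = 0.00808), linked to ADAM3 on sperm, rose with it, as did Cmtm2b and Rnase10.

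Of 5 proprotein convertases 2 rose and 2 fell, against 13.0 and 12.4% of all genes. Pcsk4, the convertase of germ cells, was at 4.56 to 258 RPKM in spermatogonia, 73.4 to 194 in primary spermatocytes and 1.84 in the ovary and rose by 2.27 ± 0.61 (adjusted p = 0.0126, limma), and Pcsk7 rose. Furin was at 10.5 to 44.8 RPKM in spermatogonia, 0.620 to 14.6 in primary spermatocytes and 92.6 in the ovary, with a difference of -2.67 ± 0.73 (adjusted p = 0.0143), and Pcsk6 fell (-1.70 ± 0.53, adjusted p = 0.0276).

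Partners of ADAM10 and ADAM17 that passed moved down with Adam10. Of 8 partners, the inactive rhomboids and the tetraspanins that carry these sheddases to the surface, 7 were tested and 3 fell (Rhbdf2, Tspan14 and Tspan17), against 12.4% of all genes. Tspan5 was at 72 to 95.0 RPKM in spermatogonia and at 27.6 to 332 in primary spermatocytes, a difference of 0.56 ± 0.50 (adjusted p = 0.458, limma), and Tspan17 fell (-2.12 ± 0.72, adjusted p = 0.0392). Rhbdf1 was at 2.26 to 4.77 and 0.342 to 1.09 RPKM, against 60.7 in the ovary, and did not pass (-1.46 ± 0.77, adjusted p = 0.182).

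Of 5 inhibitors 2 fell, against 12.4% of all genes. These were Timp2 (-2.38 ± 0.45, adjusted p = 0.00209, limma) and Timp1 (-2.10 ± 0.75, adjusted p = 0.0488), at 18.1 to 62.6 and 0.223 to 6.42 RPKM in spermatogonia. Timp3, the inhibitor of ADAM17, was at 2.04 to 11.0 RPKM there and did not pass (-2.11 ± 0.92, adjusted p = 0.104). Of 18 substrates of shedding 16 were tested, 1 rose (Tgfa) and 5 fell (App, Kit, Jag1, Il6ra and Tnf), against 13.0 and 12.4% of all genes. Kit, the stem cell factor receptor, was at 18.2 to 183 RPKM in spermatogonia and 0.584 to 15.6 in primary spermatocytes, and App, the amyloid precursor, at 22.3 to 38.4 and 1.45 to 11.6. The substrate with the highest mean, Cdh2, did not pass (1.61 ± 0.71, adjusted p = 0.106).

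Knockout and wildtype were compared in each cell type. No member passed in any of the 4 stages or in whole testis, and the test of genotype by stage called none either (limma). The background was 0 of all genes in 4 of these comparisons and in the interaction, and 0.0044% in spermatids. In whole testis 32 of 33 members passed the filter. The late spermatid sum differed widely within both genotypes there, at 6082 and 155 RPKM in wildtype and 8.91 to 12125 in knockout testes. The part of this spread in the whole testis comparison was not tested. At an unadjusted p under 0.05 there were 6, 1, 1 and 0 members from spermatogonia to spermatids and 1 in whole testis, against 5.48, 6.16, 2.56, 0.858 and 3.35% of all genes, and 5 for genotype by stage, against 2.28%. The 6 in spermatogonia were all higher in the knockout and led by Adam5 (2.12 ± 0.49, adjusted p = 0.674). Mouse 544, with its late spermatid RNA, was 1 of the 2 knockout libraries there, and without it the comparison had 1 knockout library. Adam15 was 1.69 ± 0.57 higher in knockout primary spermatocytes (adjusted p = 0.786) and 2.13 ± 0.60 higher in knockout secondary spermatocytes (adjusted p = 1.0), where the 3 knockout libraries, at 45.3 to 60.5 RPKM, were above the 2 wildtype ones, at 8.85 and 14.2.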

How the data were processed

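The authors sequenced polyadenylated RNA with paired-end reads, mapped it with TopHat2 to Ensembl transcripts and deposited 1 RPKM value for each transcript and library. Their methods also name quantile normalization, which was applied here before testing, and PEER and PoissonSeq, which were not run. Identifiers were matched to GENCODE M21 (GRCm38) for 90339 of 94480 transcripts (95.6%), and the methods name an earlier Ensembl release. Missing values, whose number differed between libraries, counted as 0 in gene sums. Among the members they occurred in 1 of 13 transcripts of Adam15 and 2 of 13 of Adam33 only.

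Gene sums were tested as quantile-normalized log2(RPKM + 0.1) with limma 3.58.1 (lmFit, eBayes with trend) in R 4.3.3 after a check on simulated data. Genes with a mean of at least 0.1 RPKM entered a fit, p-values were adjusted by Benjamini-Hochberg over all genes, and the threshold was 0.05. Stage differences are equal-weight means of the wildtype and knockout difference in 20 sorted libraries. Fold changes are on this log2 scale and understate low genes. Values fell on whole reads in 27 libraries (93.9 to 95.8% within 0.06 of a read), which gave their depth.

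Libraries of 1 mouse deviated together (median correlation 0.45 over 22 pairs, against -0.03 over 151 pairs of different mice), so mouse was also fitted as a block. Members named per library were picked on summed values. They were the 2 highest of each stage of maximum and the 4 highest of the ovary and shared classes in the ovary. The others were chosen after their values were seen. Of each partner list the 3 genes with the highest mean are given. The family and all lists were chosen with earlier results of these data known.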

Additional observations from a re-analysis of the deposited data

Results flagged for a closer look

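Single samples far from the others were looked for in every group of 4 to 10 libraries of 1 genotype and cell type. Of 66 pairs of a member and a group 4 stood out, where chance gives 3.3, or 1 in 20. Adam28 was at 2.56 RPKM in knockout primary spermatocytes of mouse 613, against 0.334 to 0.367 in the other 3 libraries, and Adam7 was at 0.154 RPKM in the same library and at 0 in the others. That library is the one whose values do not fall on whole reads. Adam2 was at 166.0 RPKM in the knockout whole testis of mouse 273, against 66.8 to 81.7 in the other 4, and Adam23 was at 4.54 RPKM in that of mouse 308, against 1.20 to 1.48.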

How the results depend on the processing

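Of the counts of members called, the following moved by over 1.5 times. Between spermatogonia and primary spermatocytes 10 members were called, 0 with knockout libraries only, 17 without the spermatogonia of mouse 544 (chosen after seeing the data) and 5 to 18 with each mouse left out in turn. Those counts were 6 without mouse 178, 6 without mouse 286, 18 without mouse 544 and 5 without mouse 648. Between primary and secondary spermatocytes 1 was called, against 0 with knockout libraries only, 0 with wildtype libraries only, 0 on the longest coding transcript, 6 without the spermatogonia of mouse 544, 9 with the replicate block of the mouse and 0 to 7 with a mouse left out. Those counts were 7 without mouse 286 and 0 without mice 178, 550 or 648. Between secondary spermatocytes and spermatids the count went from 0 to 2 with the block, which changed no call to the opposite direction and no other count by over 1.5 times. Between genotypes in spermatogonia it went from 0 to 14 without mouse 286, when mouse 544 was the only knockout library and was assumed to vary like the other groups. The ovary class went from 4 to 8 and the shared class from 8 to 4 with a 2-fold rule. The cause of these moves was not tested, apart from the smaller number of libraries where some were left out. No result reversed. Of the 11 single-gene calls, all 11 were lost with knockout libraries only, 2 on the longest transcript, 2 with wildtype libraries only, 1 on deposited RPKM and 3 to 6 without mice 178, 286, 550 or 648. Other filters, pseudocounts and left-out mice kept them.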
